A study of Mus musculus with 4 samples.

Results

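The natural killer (NK) cells of mouse hind limb sarcomas are described here. They are the 504 cells that the submitters' table of non-malignant cells assigns to the cluster named NK, out of 12648 non-malignant cells and 31611 cells in all. The tumors come from an allograft model of 129/SvJae background that all 4 mice shared, whose genotype includes Trp53flox/flox, a conditional loss of the tumor suppressor Trp53. The genotype of the host mice, from which the NK cells come in an allograft, is not given apart from that of the tumor. Mice received intraperitoneal injections of vehicle (PBS) or of digoxin at 2 mg/kg, dissolved in DMSO and diluted in PBS, every 24 hours, and tumors were collected after dose 4. Digoxin is a cardiac glycoside that inhibits the sodium-potassium pump. Each group had 2 mice, and all 4 tumors went through the same enzymatic dissociation of 45 minutes at 37 °C. Vehicle tumors gave 144 and 69 NK cells, and digoxin tumors 150 and 141. Values per mouse are given throughout in this order: vehicle 1, vehicle 2, digoxin 1, digoxin 2.

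NK cells are cytotoxic innate lymphocytes that kill by releasing perforin and granzymes, without a rearranged antigen receptor, under the control of activating and inhibitory receptors. In the mouse they develop under the T-box factors Eomes and Tbx21, and they mature in blood and spleen from a CD27-positive stage to a stage with CD11b (Itgam), KLRG1 and S1PR5. In tissues and tumors, TGF-beta is known to give NK cells features of type 1 innate lymphoid cells (ILC1), such as CD49a (Itga1).

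Expression was measured by single-cell RNA sequencing with unique molecular identifiers (UMIs, each standing for 1 captured RNA molecule), read from the 3′ end of transcripts. The NK cells held 1984267, 960303, 2225717 and 2115777 UMIs, with medians per cell of 10992, 11668, 12449 and 11596. A level below is a mean CPM: each cell's UMIs of a gene scaled to 1000000 UMIs (CPM) and averaged over the NK cells of a mouse. No barcode was shared between NK cells of different libraries. Vehicle 2 stood apart in having the fewest NK cells and in its sex-linked transcripts: the mean CPM of Xist was 993, 0, 1153 and 1018, and that of Ddx3y 2.07, 65.1, 1.80 and 0.614. Markers of other cell types were also summed in NK cells. B cell markers came to 47.6 to 62.6 mean CPM (Ms4a1 at 0), endothelial markers to 94.4 to 111 and mesenchymal and tumor markers to 202 to 285. Those of macrophages, the most abundant non-malignant cells, were higher, and their values stand beside the treatment results with those of neutrophils and dendritic cells.

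The markers of the label were all present. Ncr1, which encodes the activating receptor NKp46, had a mean CPM of 868, 853, 828 and 627 in NK cells. The 4 mice averaged 794 ± 113 (SD, n = 4), against 190.3 in the cells that the submitters call NKT, 2.84 in the other T cells and 0.489 in macrophages. Every mouse was thus high in NK cells, and the NKT cells were the only compared population with an intermediate level. Gzma, a granule protease, had a mean CPM of 6882, 5110.1, 7085 and 7362 in NK cells, against averages of 254 in NKT cells and 32.0 in other T cells. Prf1, the pore-forming protein perforin, stood at 1229, 981, 1393 and 1340.2, against averages of 78.5 in NKT cells and 21.6 in other T cells. Gzma and Prf1 were lowest in vehicle 2, and their digoxin values lay above their vehicle values without passing the test described below. Klrb1c, the NK1.1 receptor gene, had 401, 219.7, 382 and 353, and its NKT average was 218. Nkg7, a cytotoxic granule membrane protein, had 2217, 1884, 2147 and 1999 and barely separated NK from NKT cells, whose average was 1804. These clusters were made from the same expression values, so the levels describe the cells and are not tested.

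**Figure D1:**
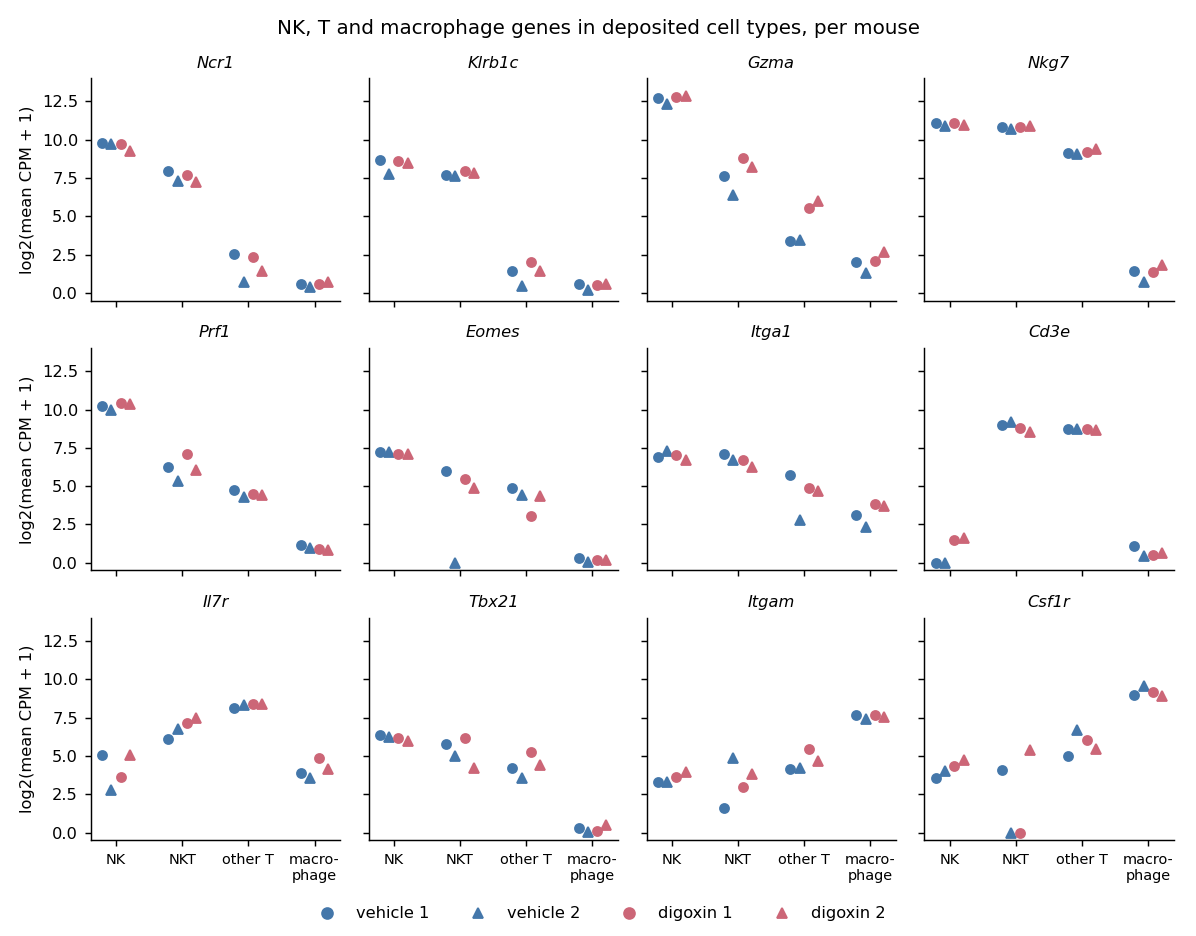
Level of 12 genes in NK cells, NKT cells, other T cells and macrophages, as log2(mean CPM + 1), with 1 point per mouse. Ncr1, Gzma, Prf1 and Eomes are highest in NK cells in all 4 mice, Nkg7 is close in NK and NKT cells, and Cd3e and Il7r are high in T cells and low in NK cells.

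Other genes of NK identity were high in every mouse. Eomes had a mean CPM of 150.4, 151, 135 and 134 in NK cells and an average of 33.1 in NKT cells. Tbx21 had 80.9, 73.0, 71.9 and 61.6. Irf8, a transcription factor, had 1339.8, 1123, 1445 and 1426, while its averages were 239.6 in NKT cells and 147 in macrophages, where it is also known to act. The lectin-like receptor genes Klre1, Klrk1 and Klrd1 ranged from 617 to 723, from 535 to 669 and from 734 to 1003 over the 4 mice. Levels of the Klra receptor family (Ly49) are uncertain, because these genes differ between mouse strains and reads of 129/SvJae tumors were counted against the mm10 reference. In addition, 18.5% of the 75-base windows in the last 500 bases of Klra3 transcripts were shared with another gene, and 16.9% and 23.9% of those of Klra7 and Klra9.

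T cell markers were mostly low. The 11 markers summed to a mean CPM of 912 to 1168 in NK cells and 4843 to 5959 in other T cells, and Cd8b1 was at 0. Cd3e, a subunit of the T cell receptor complex, had a mean CPM of 0, 0, 1.76 and 2.04 in NK cells, with UMIs in 5 of 504 cells, against averages of 478 in NKT and 423 in other T cells. Trac, the constant region of the receptor's alpha chain, was also low, at 7.05 to 9.29 in the 4 mice. Most of the sum came from 3 genes. The beta chain constant gene Trbc1 had 694, 720.4, 648 and 612, against 512 on average in other T cells and 1525 in NKT cells. Trbc2 had 285, 144, 186 and 234, against 1041 in other T cells, and Cd3g had 157, 34.0, 109 and 86.1, against 1105. Trbc1 in NK cells was therefore of the order of its level in T cells, and Cd3e was close to 0 in the same cells.

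The genes of other innate lymphoid lineages were mostly low. Il17a, a cytokine of group 3 innate lymphoid cells, had no UMI in 504 NK cells, which allows a share of up to 0.595% of cells with a UMI. Il7r, the interleukin-7 receptor of innate lymphoid cells and T cells, had a mean CPM of 32.6, 5.88, 11.6 and 32.6, against an average of 315 in other T cells. Gata3, needed by group 2 cells and also expressed in NK cells, had 35.5, 42.1, 26.9 and 27.5. Il1rl1, the interleukin-33 receptor of group 2 cells, had 8.46 to 23.2, and Areg, one of their products, 1.37 to 5.25. Il7r in vehicle 1 and digoxin 2 was near the level of Gata3.

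Of the genes shared with ILC1, some were present and others low. Itga1 (CD49a) had a mean CPM of 119, 155, 131 and 103, against averages of 105 in NKT cells and 27.9 in other T cells. Itga2 (CD49b), the integrin of conventional NK cells, had 19.4, 16.6, 35.7 and 22.5. Cxcr6, Cd200r1 and Il7r, further genes of ILC1, were low: Cxcr6 had 20.9 to 30.1, against 193 in other T cells, and Cd200r1 had 7.10 to 10.8. Tnfsf10, the death ligand TRAIL, had 40.3, 36.3, 17.6 and 16.8, and Ltb, lymphotoxin beta, 171, 157, 105 and 93.1. Neither gene's groups overlapped, with digoxin lower, as for 16.9% of all genes tested, and neither passed the test (limma adjusted p = 0.207 and 0.105).

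Cells of different depth were compared after thinning each to 5000 UMIs, which kept 489 of the 504 NK cells. Eomes then had a UMI in 47.5%, 53.7%, 42.2% and 40.4% of NK cells, and Itga1 in 44.6%, 40.3%, 34.7% and 26.5%. In macrophages, which should lack Eomes, the thinned share averaged 0.0378%, and the share for Itga1 was 3.55%. Both genes were found in the same cell in 22.3%, 23.9%, 10.9% and 10.3% of NK cells. Independent detection would give 21.2%, 21.7%, 14.6% and 10.7%. The observed share was close to that in 3 mice and below it in digoxin 1, so no mouse showed Eomes and Itga1 in separate sets of cells. The Itga1 share was lower in both digoxin mice, by 11.9 percentage points on average (two-sided exact permutation test, p = 0.333, the smallest that 2 against 2 mice can give). The unthinned shares were 56.9%, 71.0%, 51.3% and 46.1%. Thinning was 1 random draw. The exact expectation over all draws was 38.0%, 47.1%, 34.5% and 30.8% for Itga1, a smaller difference of -9.94 points in the same direction. For Eomes the expectation was 47.4%, 49.1%, 43.4% and 43.4%, a difference of -4.87 points, against -9.30 in the draw. The expected share with both genes was 17.1%, 23.7%, 12.7% and 12.7%, against 18.0%, 23.2%, 15.0% and 13.4% for independent detection. The unthinned Eomes shares were 67.4%, 71.0%, 68.7% and 67.4%, and the groups overlapped.

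Genes of terminal maturation were mostly low. S1pr5, the receptor by which mature NK cells leave bone marrow and lymph nodes, had UMIs in 5 of 504 NK cells. Itgam had a mean CPM of 8.71, 8.74, 11.4 and 14.5, far below its average of 189 in macrophages. Cma1, a mast cell protease also transcribed in mature NK cells, had 0 to 3.08, and Cx3cr1, a chemokine receptor of the mature stage, 3.24 to 13.8. Klrg1, an inhibitory receptor of the mature stage, was the exception, with 116, 110.4, 138 and 112 and a thinned share of 34.5%, 37.3%, 40.1% and 36.8% of NK cells. The thinned Klrg1 share averaged 0.109% in macrophages and 19.7% in other T cells. The other T cells had 12.1%, 39.0%, 15.8% and 12.0%, so in vehicle 2 their share was above that of NK cells.

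Cd27, the marker of the earlier stage, had a mean CPM of 73.2, 68.1, 85.8 and 79.5 in NK cells. Its thinned share was 24.5%, 28.4%, 34.7% and 31.6% of NK cells, against 0.739% in macrophages. Cd27 and Klrg1 were found together in 3.6%, 5.97%, 8.84% and 8.09% of NK cells, less than the 8.45%, 10.6%, 13.9% and 11.6% that independent detection would give, in all 4 mice. Over all draws the expected share with both was 5.48%, 4.84%, 9.01% and 6.20%, against 8.75%, 8.64%, 11.4% and 10.1%. The Cd27 share was higher in each digoxin mouse than in each vehicle mouse, by 6.75 percentage points on average (3.79 expected over all draws), and the Klrg1 shares of the groups overlapped (exact permutation p = 0.333 for Cd27 and 0.667 for Klrg1). Tcf7, a factor of early NK cells, had a mean CPM of 64.7, 75, 60.5 and 43.6. Mki67, the proliferation antigen gene, had a UMI in 27.3%, 29.9%, 27.9% and 29.4% of thinned NK cells. The thinned share averaged 24.0% in macrophages and 31.6% in other T cells.

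**Figure D2:**
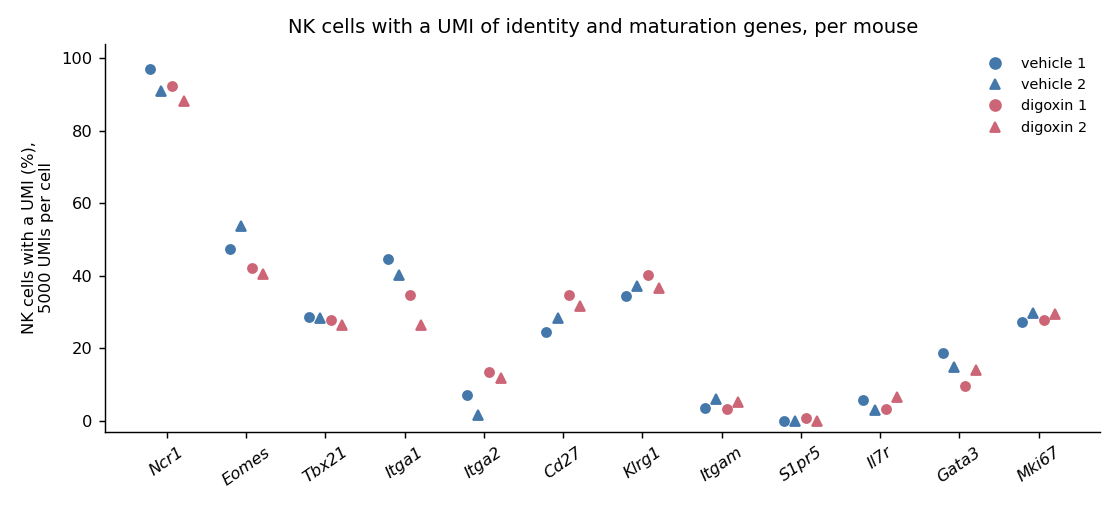
Percent of NK cells with at least 1 UMI of 12 identity, maturation and lineage genes after thinning each cell to 5000 UMIs, with 1 point per mouse. Ncr1 is near the top in all mice, S1pr5 is at or near 0, and Itga1 and Eomes are lower in the digoxin mice than in the vehicle mice. Thinning was 1 random draw, and without it the Eomes shares of the groups overlap.

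The genes highest in NK cells relative to T cells and macrophages were mostly granzymes. Among 1401 genes with an average mean CPM of at least 100 in NK cells, the ratio to the higher of the T cell and macrophage averages was greatest for Tmsb15a (288-fold), a beta-thymosin gene, followed by Gzmg (246), Gzmf (229), Gzme (217) and Gzmd (179). Klra8 (173), Gzma (80.9), Gzmc (55.1), Car2 (43.3), a carbonic anhydrase gene, and Styk1 (38.9), which encodes a kinase-like protein, completed the first 10. Gzmb, which lies beside these genes and was 2203 on average in NKT cells and 901 in other T cells, was less restricted, with 3659, 3579, 3409.6 and 3916 in NK cells.

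Gzmb to Gzmg lie in 1 cluster on the minus strand of chromosome 14, from Gzmb at 56258838 to 56262260, through Gzmc at 56231441 to 56234656, Gzmf at 56205263 to 56211417, Gzmg at 56156582 to 56159579 and Gzmd at 56129556 to 56132608, to Gzme at 56117626 to 56120625 (GRCm38). Gzma is on chromosome 13, at 113093825 to 113100981. The promoters of Gzmc, Gzmd and Gzme are shown because these genes of the cluster share most of their start-site sequence, and Gzmc alone of the 3 passed the test of the treatment; a difference between them was not tested. They are RefSeq sequences of GRCm38.p6, from 250 bases before to 50 bases after the annotated start, on the minus strand and 5′ to 3′. Capitals mark GGTGTG or its reverse complement CACACC, the core of the T-box motif.
Gzmc chr14:56234608-56234907: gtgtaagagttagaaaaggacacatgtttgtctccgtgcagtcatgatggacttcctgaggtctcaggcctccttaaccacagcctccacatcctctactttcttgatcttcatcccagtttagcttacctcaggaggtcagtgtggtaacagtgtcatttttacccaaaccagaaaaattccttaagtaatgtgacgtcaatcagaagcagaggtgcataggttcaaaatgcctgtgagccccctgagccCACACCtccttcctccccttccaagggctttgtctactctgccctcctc
Gzmd chr14:56132544-56132843: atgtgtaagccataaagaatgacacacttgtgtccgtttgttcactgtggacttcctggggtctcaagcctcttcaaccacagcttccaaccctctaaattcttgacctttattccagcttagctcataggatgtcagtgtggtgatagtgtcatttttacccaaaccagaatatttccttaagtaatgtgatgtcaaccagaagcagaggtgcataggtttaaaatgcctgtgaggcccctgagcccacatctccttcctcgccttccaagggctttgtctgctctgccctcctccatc
Gzme chr14:56120576-56120875: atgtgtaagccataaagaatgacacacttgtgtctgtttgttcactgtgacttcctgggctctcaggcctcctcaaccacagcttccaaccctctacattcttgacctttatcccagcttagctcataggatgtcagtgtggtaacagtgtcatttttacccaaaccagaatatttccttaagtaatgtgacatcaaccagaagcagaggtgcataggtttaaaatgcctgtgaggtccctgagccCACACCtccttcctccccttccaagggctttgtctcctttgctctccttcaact
The Gzmc promoter was 85.3% identical to that of Gzmd and 86.0% to that of Gzme, and the promoters of Gzmd and Gzme were 93.7% identical. The promoter of Gzmb was only 55.3% to 59.3% identical to those of Gzmc to Gzmg. The core was found once in the windows of Gzmc and Gzme and not in that of Gzmd, and 6257 of 32851 promoters of this length (19.0%) hold it on either strand. The transcripts could mostly be told apart where reads fall: of the 75-base windows in the last 500 bases, none of Gzmc or Gzmf and 5.16% of Gzmd and Gzme were shared with another gene.

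The clustered granzymes differed in how many cells had a UMI of them. Gzma UMIs were found in 449 of 504 NK cells and Gzmb UMIs in 480. Gzmc had 15937 UMIs in 256 cells, Gzmd 17487 in 67, Gzme 7107 in 71, Gzmf 20233 in 44 and Gzmg 14757 in 29. The thinned share of cells with a Gzmf UMI averaged 7.41% for NK cells against 2.19% for macrophages, and in vehicle 2 it was 7.46% against 5.48%. At full depth the averages were 8.58% and 6.38%, and the vehicle 2 shares were 7.25% and 14.5%, with medians of 11668 UMIs per NK cell and 16070 per macrophage. The UMIs were concentrated in single cells: the highest cell held 2975 of the 3964 Gzmf UMIs of vehicle 2 and 5212 of the 12649 of digoxin 2. For Gzmg it held 2295 of 2302 in vehicle 2 and 5020 of 11178 in digoxin 2.

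The levels of these genes varied widely between mice. Gzmd had a mean CPM of 570.1, 1206, 439.9 and 1299.5, and Gzmf had 374, 2359, 563 and 1346. Gzmg had 106, 1439.7, 377 and 1081, and Gzme 213, 379, 227 and 548. The groups overlapped for each of the 4, and the adjusted p of limma was between 0.883 and 0.981. With a mouse left out, the sign depended on the mouse for all 4, and limma called some of them in either direction. Without vehicle 2, Gzmg was higher with digoxin (log2 difference 2.58, against 0.71 with it; limma adjusted p = 0.000533), while Gzmf (1.22, against -0.11), Gzmd (0.41, against -0.13) and Gzme (0.73, against 0.31) were not called (limma adjusted p = 0.142, 0.926 and 0.779). Gzmf was lower without vehicle 1 (-1.44, limma adjusted p = 0.013) and without digoxin 2 (-0.74, adjusted p = 1.81e-05), and Gzmd was lower without digoxin 2 (-0.91, adjusted p = 2.03e-08). Across the cells of a mouse, on log2(CPM + 1), Pearson's r between Gzmd and Gzme was 0.86 to 0.92, between Gzmf and Gzmg 0.52 to 0.76 and between Gzmc and Gzmd 0.46 to 0.56. Gzma followed Prf1 (0.48 to 0.61) but not Gzmd (-0.05 to 0.20). These values describe 69 to 150 cells a mouse that share a library and differ in depth, and some windows of Gzmd and Gzme are shared, so a read of one can be counted for the other.

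**Figure D3:**
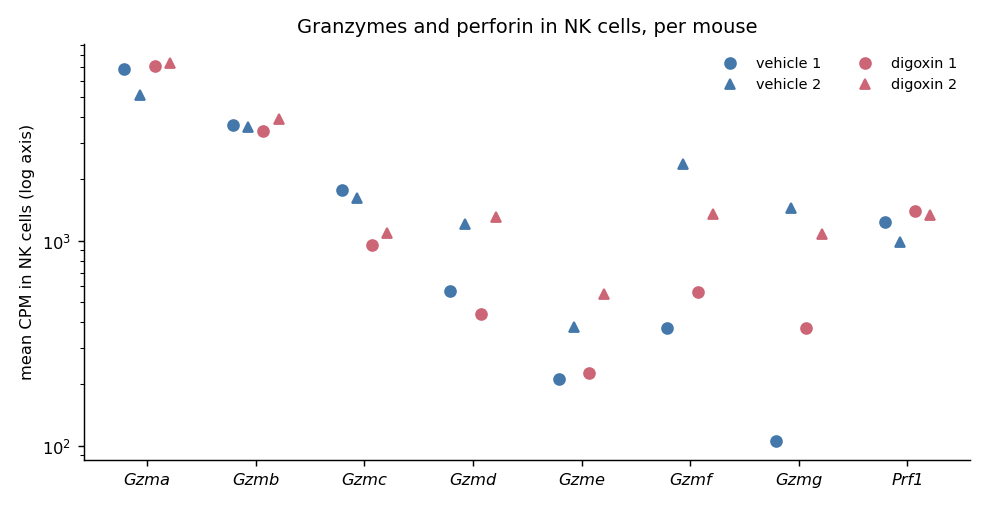
Mean CPM on a log axis of Gzma to Gzmg and Prf1 in the NK cells of each mouse. Gzmc is lower in both digoxin mice, while Gzmd, Gzme, Gzmf and Gzmg overlap between the groups.

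NK cells formed 4.75%, 2.29%, 4.49% and 4.33% of non-malignant cells in the 4 mice. The groups overlapped, and the difference of 0.889 percentage points turned to -0.340 without vehicle 2 (exact permutation p = 1). Among lymphocytes (NK, T and B cells), NK cells formed 41.7% in vehicle 1 (144 of 345, 95% exact binomial interval 36.5 to 47.1) and 37.7% in vehicle 2 (69 of 183, 30.7 to 45.2). They formed 47.6% in digoxin 1 (150 of 315, 42.0 to 53.3) and 50.2% in digoxin 2 (141 of 281, 44.2 to 56.2). The share was 39.7% ± 2.85 with vehicle and 48.9% ± 1.81 with digoxin (SD, n = 2), a difference of 9.18 percentage points (exact permutation p = 0.333). Both digoxin mice were above both vehicle mice, and leaving out each mouse in turn gave 7.16 to 11.2 percentage points. The intervals cover counting error only.

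The question of the treatment comparison is which genes of NK cells differed between digoxin and vehicle tumors. There were 2 genes lower with digoxin, Gzmc and Ifitm1, and 5 were higher, Il1b, Cxcl2, Cxcl3, Cd14 and Thbs1. The test was limma on log2(mean CPM + 1) per mouse, with Benjamini-Hochberg adjustment at 0.05 over 9147 genes, of which these 7 passed (0.0765%, of which 0.0547% higher and 0.0219% lower). An unadjusted p under 0.05 was found for 574 genes (6.28%), and the median log2 difference of all genes was 0.02. The count of genes called depended on single mice: it was 142 without vehicle 1, 14 without vehicle 2, 12 without digoxin 1 and 24 without digoxin 2. All 7 genes passed without vehicle 2. In those fits the lone mouse of a group is assumed to vary like the others.

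Gzmc, a granzyme expressed by strongly activated killer cells, had a mean CPM of 1769, 1619, 958 and 1093 in NK cells. Both vehicle mice were above both digoxin mice. The means were 1694 ± 105 and 1025 ± 96.0 (SD, n = 2), a level 1.65-fold higher with vehicle, and the log2 difference was -0.73 (SE 0.0861, limma adjusted p = 0.0018). A UMI of Gzmc was found in 50.4%, 53.7%, 34.0% and 36.8% of thinned NK cells, against 0.853% of macrophages, so fewer cells had a UMI in both digoxin mice (exact permutation p = 0.333). The unthinned shares were 54.2%, 65.2%, 43.3% and 48.2%. On UMIs summed over cells, which weight the cells with most RNA, edgeR gave a log2 difference of -0.39 (adjusted p = 0.83). Gzmc had 5665, 2058, 3038 and 5176 UMIs. Relative to all UMIs of the NK cells, digoxin 2 was above vehicle 2, so the groups overlapped on that measure. Without the cells that Scrublet marks as doublets, limma gave -0.67 (adjusted p = 0.0574).

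Ifitm1, an interferon-induced membrane protein of chromosome 7 (140967221 to 140969825, GRCm38), had 777, 793, 352 and 526. Again both vehicle mice were above both digoxin mice, with digoxin 1 the lowest. The means were 785 ± 11.3 and 439 ± 123, 1.79-fold higher with vehicle, and the log2 difference was -0.87 (SE 0.142, limma adjusted p = 0.0411). Without digoxin 1 it was -0.58, and Ifitm1 was not called. Limma also did not call Ifitm1 without the cells that Scrublet marks as doublets (-0.79, adjusted p = 0.32) or without the filter on low values (adjusted p = 0.343). Nor did limma call it on CPM of summed UMIs (-0.49, adjusted p = 0.828). On summed UMIs edgeR gave -0.43 (adjusted p = 0.83). Ifitm1 had 2228, 835, 1146 and 2042 UMIs. Relative to all UMIs of the NK cells, digoxin 2 was again above vehicle 2. The thinned share of NK cells with a UMI was 29.5%, 34.3%, 14.3% and 29.4%, so digoxin 1 was low and digoxin 2 was level with vehicle 1, and macrophages had 9.57%.

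The 5 genes that rose encode inflammatory and myeloid proteins. Il1b, interleukin-1 beta, had a mean CPM of 7.03, 10.3, 101 and 55.2 in NK cells, 9.01-fold higher with digoxin (log2 difference 2.99, SE 0.307, limma adjusted p = 0.000544). Cxcl2, a neutrophil-attracting chemokine, had 99.9, 54.1, 347 and 322, 4.35-fold higher (2.17, SE 0.21, adjusted p = 0.000544). Every digoxin mouse was several times above every vehicle mouse for both. Cd14, the lipopolysaccharide co-receptor, had 34.1, 22.3, 116 and 178, 5.22-fold higher (2.34, SE 0.234, adjusted p = 0.000544). Thbs1, the matrix protein thrombospondin 1, had 6.07, 7.99, 42.9 and 58.8, 7.23-fold higher (2.68, SE 0.295, adjusted p = 0.000913). Cxcl3, a chemokine related to Cxcl2, had 0.446, 0, 14.9 and 32.4, from 2, 0, 61 and 105 UMIs, so no fold is given (4.26, SE 0.585, adjusted p = 0.00765). The Cxcl3 call was lost without digoxin 2 (log2 difference 3.73, limma adjusted p = 0.915) and without the filter on low values (adjusted p = 0.0609). All 5 were called by edgeR, while DESeq2 did not call Il1b (log2 difference 2.74, adjusted p = 0.93). Single cells held a large part of the UMIs. The highest cell of digoxin 1 and of digoxin 2 held 103 of 356 and 105 of 208 UMIs of Il1b. It held 295 of 1346 and 422 of 1202 of Cxcl2, and 71 of 446 and 105 of 584 of Cd14. For Thbs1 it held 96 of 170 and 123 of 238, and for Cxcl3 44 of 61 and 49 of 105. In vehicle 2, 1 cell held all 29 Il1b UMIs.

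**Figure D4:**
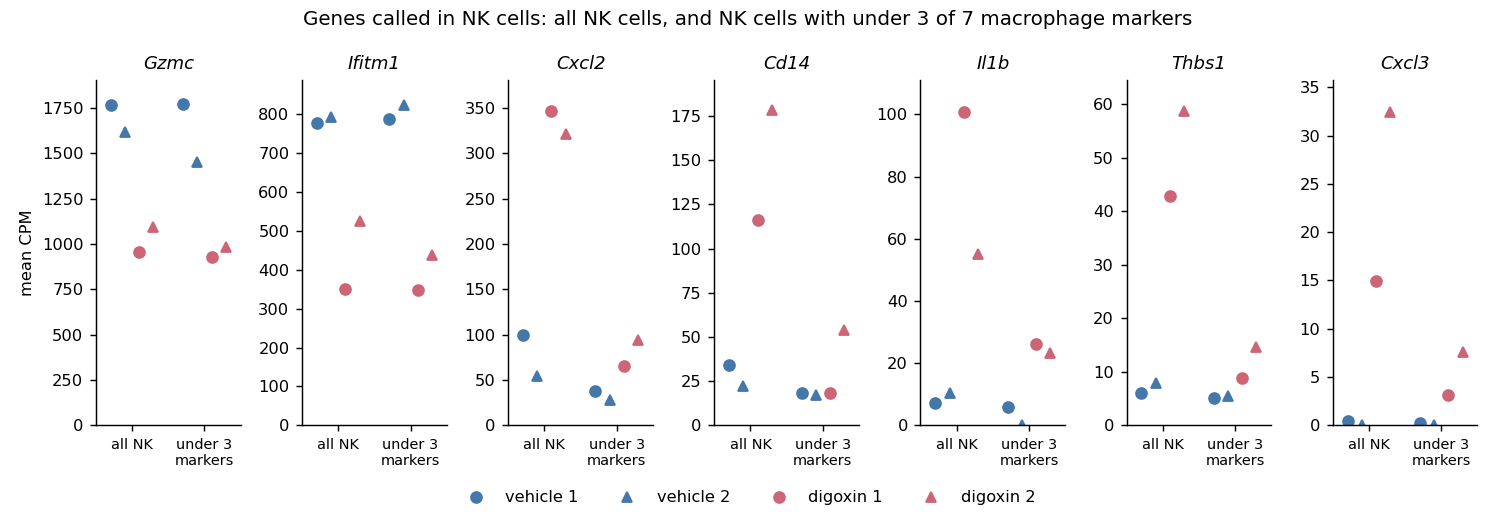
Mean CPM of the 7 genes called by limma, per mouse, in all NK cells and in those with under 3 of 7 macrophage markers. Each gene has its own linear axis that starts at 0. Gzmc and Ifitm1 look alike in both sets of cells, and the levels of the other 5 genes are lower in every mouse once the cells with 3 or more markers are left out, apart from Cxcl3 in vehicle 2, which is at 0 in both.

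Macrophage markers are given beside these 5 genes. Of 13 macrophage markers, all tested, 8 had digoxin values that both lay above the vehicle values and 0 lay below, where 19.1% of all genes tested were higher without overlap and 16.9% lower. Their summed mean CPM in NK cells was 632, 711, 875 and 1358, against 24524 to 40202 in macrophages, and none of the 13 was at 0 in all mice. The NK cells with a UMI of at least 3 of 7 of these markers (among them Csf1r, Adgre1, C1qa, C1qb, C1qc and Mrc1) numbered 12, 5, 15 and 20, or 8.33%, 7.25%, 10.0% and 14.2%, and included all 20 cells that Scrublet marked. These 52 cells, 10.3% of the NK cells, held 92.3% of the Cxcl3 UMIs, 89.4% of Cxcl2, 89.2% of Thbs1, 87.8% of Cd14 and 84.8% of Il1b. Most of these UMIs came from the digoxin mice, where the share of each gene was 80.3% to 94.8%. In vehicle 1 the cells held 1 of 2 UMIs of Cxcl3, 213 of 275 of Cxcl2, 6 of 14 of Thbs1, 55 of 82 of Cd14 and 6 of 17 of Il1b. In vehicle 2 they held 74 of 96 of Cxcl2, 8 of 12 of Thbs1, 17 of 32 of Cd14 and all 29 of Il1b. They held 92.8% of the Apoe UMIs, a macrophage marker outside those 7, and 10.8% of the UMIs of Ncr1 and of Gzma. For the genes that fell, the same cells held 20.8% of Gzmc and 20.6% of Ifitm1. In each mouse these cells held a larger share of all UMIs than of cells. The other NK cells held 1699808 of 1984267, 841572 of 960303, 1792933 of 2225717 and 1632709 of 2115777 UMIs. Markers of neutrophils and dendritic cells were low, and none passed the filter for a test. Their counts without overlap stand beside the same 19.1% higher and 16.9% lower over all genes tested. The 6 neutrophil markers summed to 4.92, 7.6, 20.8 and 9.22 mean CPM, with 3 higher without overlap, 0 lower and none at 0 in all mice. The 6 dendritic cell markers summed to 2.46, 2.81, 8.51 and 4.71, with 1 higher and 0 lower, and Xcr1, Clec9a and Cd209a were at 0. The part of either cell type in the result was not tested.

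The comparison was repeated in NK cells with under 3 of the 7 markers. Cxcl2 then had a mean CPM of 38.3, 28.5, 65.4 and 94.4 (log2 difference 1.22, limma adjusted p = 0.423). Cd14 had 18.2, 17.1, 18.1 and 54.1 (0.80, adjusted p = 0.875), and Thbs1 had 5.02, 5.56, 8.93 and 14.6 (0.98, adjusted p = 0.875). Il1b had 5.98, 0, 26.1 and 23.1 (3.28, adjusted p = 0.508), and Cxcl3 fell below the filter for a test. Both digoxin mice stayed above both vehicle mice for Cxcl2, Thbs1, Il1b and Cxcl3 but not for Cd14, and none of the 5 passed the test.

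Gzmc and Ifitm1 were the 2 genes called in those cells. Gzmc had 1773, 1452, 928 and 981 (-0.75, limma adjusted p = 0.0289), and Ifitm1 had 788, 823, 347 and 437 (-1.05, adjusted p = 0.00969). In the 184 cells with none of the 7 markers, Gzmc had 1446, 2249, 887 and 449 and Ifitm1 had 920.2, 1015, 526 and 386, and limma called neither (adjusted p = 0.132 and 0.0769). Macrophages themselves had averages of 1.68 for Gzmc and 73.7 for Ifitm1, against 4834 for Cxcl2 and 2401 for Cd14.

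**Figure D5:**
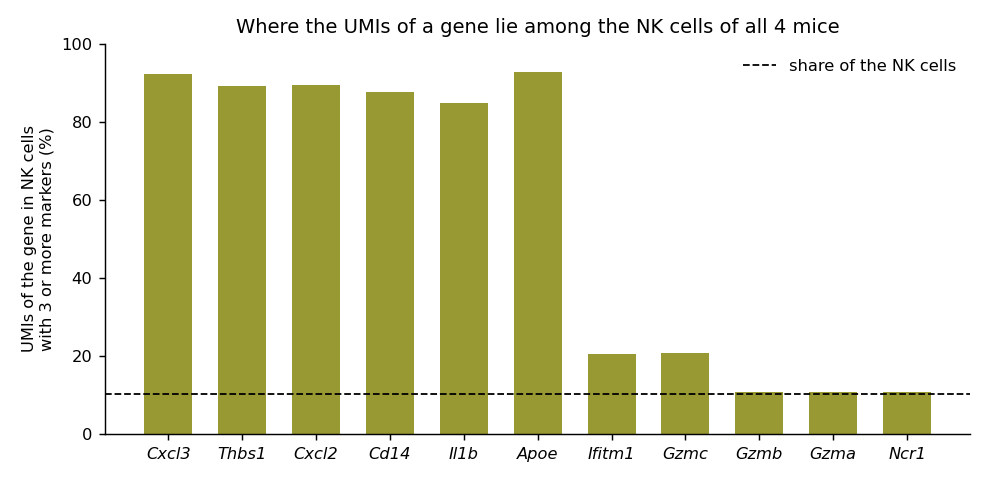
Percent of each gene's UMIs in NK cells that lies in the cells with 3 or more of 7 macrophage markers, pooled over the 4 mice, so that the digoxin mice, with most UMIs, weigh most for the genes that rose. The dashed line is the share of such cells among NK cells, 10.3%. It counts cells, and these cells held a larger share of all UMIs than that. Cxcl3, Thbs1, Cxcl2, Cd14, Il1b and Apoe lie between 84.8% and 92.8%, and Gzma, Gzmb and Ncr1 lie close to the line.

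The remaining genes are given by list, with counts of members whose 2 groups did not overlap, against backgrounds of 19.1% higher and 16.9% lower over all genes tested. Of 23 cytotoxic genes, 7 were higher with digoxin (Gzma, Gzmk, Prf1, Fasl, Ctsc, Lamp1 and Serpinb9) and 5 lower (Gzmc, Gzmm, Tnfsf10, Ctsw and Unc13d), with a median log2 difference of 0.13. Gzmc was the only one called. Serpinb9, the inhibitor that protects killer cells from granzyme B, had 805, 668, 848 and 978, and Fasl, a death ligand, 97.0, 93.0, 130.2 and 103. Their limma adjusted p was 0.691 and 0.799.

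The identity and maturation genes held no call apart from Gzmc. Of 18 NK core genes, 4 were higher and 5 lower, with a median log2 difference of 0.02. Of 8 ILC1 genes tested, 0 were higher and 3 lower (Tnfsf10, Cd200r1 and Ltb), with a median of -0.28. Of 4 group 2 genes tested, Gata3 was lower without overlap, and of 2 group 3 genes tested, Ahr was. Of 10 immature genes, 1 was higher (Cd27) and 3 lower (Tcf7, Thy1 and Cxcr3). Of 8 mature genes tested, 2 were higher (Itgam and Cx3cr1, which macrophages express at 189 and 269.6) and 1 lower (Prdm1). The part of the macrophage transcripts in the Itgam and Cx3cr1 values was not tested. Of 12 genes linked to TGF-beta in tissue NK cells, Gzmc was the only one whose groups did not overlap.

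Receptor genes gave values on both sides. Of 19 activating receptor genes and adaptors, 1 was higher and 4 lower, among them Ncr1 and Cd226, the receptor DNAM-1, with 63.2, 70.6, 37.0 and 41.4. Of 14 inhibitory receptor genes, 2 were higher (Klra3 and Klra9) and 4 lower (Klrc1, Klrd1, Klra5 and Klri1). Klrc1, which encodes NKG2A, had 188, 166, 127 and 137, and the limma adjusted p was 0.656. Of 10 checkpoint genes, 2 were higher (Havcr2 and Vsir) and 3 lower (Pdcd1, Cd160 and Cd200r1), and Cd160 had 105, 119, 74.9 and 84.8 (adjusted p = 0.656).

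Signalling genes were likewise without a call. Of 10 cytokine and chemokine genes tested, 1 was higher (Ccl5) and 3 lower (Ccl4, Flt3l and Ltb), with a median log2 difference of -0.45. Of 22 cytokine receptor and signalling genes, 3 were higher (Il12rb2, Ifngr1 and Stat4) and 2 lower (Il18rap and Cish). Cish, a feedback inhibitor of interleukin-15 signalling, had 39.5, 28.2, 18.1 and 18.4 (limma adjusted p = 0.656). Of 16 trafficking genes, 4 were higher (Cxcr4, Cx3cr1, Itga2 and Itgam) and 2 lower (Cxcr3 and Itgal). Cxcr3, a receptor for interferon-induced chemokines, had 59.6, 62.7, 41.9 and 39.7 (adjusted p = 0.667).

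Of 24 transcription factor genes, 6 were higher (Ets1, Runx3, Irf8, Nr4a1, Nr4a2 and Nr4a3) and 8 lower (Tbx21, Eomes, Id2, Prdm1, Ikzf2, Tcf7, Ezh2 and Gata3), and none was called. Nr4a3, a factor induced by receptor signalling, had 79.7, 55.8, 102 and 98.3, and Id2, the factor common to innate lymphoid cells, had 905, 918, 769.8 and 684 (limma adjusted p = 0.656 and 0.518). Of 20 proliferation genes, 3 were higher (Rrm2, Hist1h1b and Tk1) and 5 lower (Ccnb2, Ccna2, Hmgb2, Cenpf and Ube2c). In limma none of the 20 was called. Hist1h1b, a linker histone, had 111, 114, 165 and 179 (limma adjusted p = 0.19), and it passed in edgeR (adjusted p = 0.00969), DESeq2 (0.0308) and limma on CPM of summed UMIs (0.0259). Cenpf, a kinetochore protein, had 67.8, 68.8, 47.7 and 36.0 (limma adjusted p = 0.577).

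Of 18 interferon genes, 4 were higher and 3 lower, with Ifitm1 the only call and a median log2 difference of 0.05. Ifitm2, its neighbour in function, had 329, 444, 248 and 295 (limma adjusted p = 0.608), and Ifitm3 had 277, 307, 232 and 337, with overlapping groups. Isg15, an interferon-induced ubiquitin-like protein, had 208, 188, 211 and 254. Its digoxin values were the higher ones, unlike those of Ifitm1. Of 17 early response genes, 2 were higher (Egr1 and Ier3) and 1 lower (Atf3), and of 15 genes of glycolysis and hypoxia, 1 was higher (Hif1a) and 3 lower (Aldoa, Eno1 and Pkm). Of 16 inflammatory myeloid genes tested, 11 were higher and 0 lower, 5 of them the genes called, with a median of 1.23. That list was drawn up with the calls known, so its count is no independent evidence.

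Among the genes next in order of p, with a mean CPM of at least 20 in 1 mouse or more and no overlap, were several lymphoid genes. Ccl4, a chemokine that activated NK cells secrete, had 205, 389.6, 120.5 and 45.7 (log2 difference -1.91, limma adjusted p = 0.0741). Ccl4 was called with a pseudocount of 10 (adjusted p = 0.0358) and with the replicate block (0.00118), but not by edgeR (adjusted p = 0.228) or DESeq2. Its log2 difference was -2.60 without digoxin 1, -2.37 without vehicle 1 and -1.22 without digoxin 2, all called by limma, -1.45 without vehicle 2 (adjusted p = 0.142) and -0.71 in cells with none of the macrophage markers (0.885). Ccl5, a chemokine stored in granules, had 1330.0, 945, 1681 and 1748 (0.61, adjusted p = 0.132). Pmepa1, a TGF-beta target gene, had 127, 123, 186 and 204 (0.63, adjusted p = 0.139). Ptpn6, the phosphatase SHP-1 recruited by inhibitory receptors, had 158, 177, 129 and 96.5, and Rasgrp1, an activator of Ras, had 56.5, 55.4, 36 and 30. Ilk was also among the 10 lower genes. The others that were higher, Lrp1 (6.90, 4.82, 23.3 and 26.9), Chil3 (0, 0, 20 and 8.26) and Ier3 (96.9, 69.6, 174 and 142), are genes that macrophages express. Pmepa1, Lrp1, Chil3 and Ier3 passed in edgeR (adjusted p = 0.0402, 0.0261, 0.0102 and 0.0261), and of these 4 DESeq2 called Chil3 (0.00429). The NK cells with 3 or more of the 7 macrophage markers held 99 of the 100 UMIs of Chil3, 132 of the 177 of Lrp1 and 710 of the 1217 of Ier3. Without those cells limma gave a log2 difference of 2.57 for Lrp1 (adjusted p = 0.498, against 1.94 and 0.0741 with them) and 0.49 for Ier3 (0.875, against 0.93 and 0.0999 with them).

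Whether the treatment difference in NK cells differed from that in T cells of the same tumors was tested with an interaction term, with the mouse as a block. Gzmc in T cells had 19.5, 15.1, 37.7 and 26.5, so both digoxin mice were higher there, and the NK difference minus the T difference was -1.57 on the log2 scale (limma adjusted p = 0.189). Ifitm1 in T cells had 113, 168, 369 and 117, and the difference was -1.46 (adjusted p = 0.999). For Il1b it was 1.89 (adjusted p = 0.189) and for Thbs1 1.61 (adjusted p = 0.734). In limma 0 of 9793 genes passed and 346 had a raw p below 0.05, and edgeR called 1, Thbs1, with a difference of 2.48 (384 genes had a raw p below 0.05). Leaving out a mouse changed the limma count to 276 without vehicle 1, 28 without vehicle 2, 1 (Ccl4) without digoxin 1 and 3 (Il1b, Ifitm1 and Gzmc) without digoxin 2. In T cells alone limma called 0 of 8930 genes, and in macrophages 0 of 13734. In the draw, the thinned share of macrophages with a UMI was higher in both digoxin mice for Thbs1, Cxcl3, Cxcl2 and Cd14, and overlapped for Il1b. In the exact expectation over all draws Cd14 overlapped too, at 94.7%, 95.7%, 95.6% and 96.9%. At full depth the Il1b shares, 64.7%, 60.8%, 68.6% and 65.6%, did not overlap. For Thbs1 the thinned share was 47.7%, 42.6%, 57.0% and 57.6%. With 0 genes past the interaction test in limma, a call in NK cells only is not shown to be particular to them.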

How the data were processed

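Single cells of 4 tumors were profiled with a 10x 3′ V3 kit, per the labels' protocols. Cell Ranger 3.0.2, Seurat 3.0.2 and the mm10 build are named in the submitters' processing notes. The deposited values are natural log values, ln(1 + UMIs per 10000), and the deposited cell table gives each cell's count of UMIs, cluster and library. UMIs recovered from these values were whole in 100% of cases (tolerance 0.01) and summed to the deposited count in all 12648 non-malignant and 18963 malignant cells. The library numbered 3 in cell names is vehicle 2 in the cell table. Nothing states that the mice of a group were handled on separate days, so p-values measure the spread between mice only.

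Mean CPM per mouse was tested with limma 3.58.1 (R 4.3.3; variance trend, pseudocount 1, filterByExpr, adjusted p under 0.05), with edgeR 4.0.16 and DESeq2 1.42.0 on summed UMIs as alternatives. Doublets were marked with Scrublet in scanpy 1.11.5 (expected share 0.06). The fits were run on simulated summed UMIs with known folds, to check that they return the right direction. The simulation gave all genes the same dispersion and no uneven cells, so it does not measure the error rate in these data. The replicate numbers did not pair the mice (correlation of deviations -0.03 over 9147 genes).

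The members and lists were chosen with earlier results of these data known. Genes named are those called, the 10 of smallest p per direction without overlap, the 10 most NK-restricted genes by ratio, and list members (defining, abundant or without overlap); others are given as counts. Aligned reads and host genotype were not used here, and some items are not reported here.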

Additional observations from a re-analysis of the deposited data

How the results depend on the processing

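With 2 mice a group, all counts of calls were unstable. The limma count of 7 (5 higher, 2 lower) was 7 in cells under 10% mitochondrial UMIs, 8 with a pseudocount of 10, 5 without the filter (1 lower), 9 on CPM of summed UMIs (9 higher, 0 lower), 23 with the replicate block (19 higher, 4 lower), 17 in edgeR (17 higher, 0 lower; 558 at an unadjusted p under 0.05) and 7 in DESeq2 (7 higher, 0 lower). Leaving out each mouse gave 12 to 142 (8 to 118 higher, 4 to 24 lower). Without doublets limma called 0 (0 higher, 0 lower; 510 unadjusted), without the cells with 3 or more of 7 macrophage markers 2 (0 higher, 2 lower; 464 unadjusted), and in cells with none of the 7, an alternative chosen after seeing the data, 0 (0 higher, 0 lower; 313 unadjusted of 5806 tested). For the comparison with T cells, leaving out each mouse gave 1 to 276 genes (0 to 193 higher, 1 to 83 lower) and edgeR 1 (1 higher). No genes were called there without doublets (357 unadjusted) or in cells with none of the markers (228 unadjusted).

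The 7 called genes kept their direction under every alternative that tested them. Gzmc ranged from -1.51 to -0.39 and Ifitm1 from -1.16 to -0.43. Signs turned for Cd226 in cells with none of the markers (0.24), for 4 uncalled granzymes when each mouse was left out (Gzmd -0.91 to 0.65, Gzme -0.32 to 0.95, Gzmf -1.44 to 1.22 and Gzmg -1.17 to 2.58), and for 4 results of the other comparisons. The NK minus T difference of Cxcl3 was -0.21 without vehicle 1, -1.32 to 1.72 when each mouse was left out (lowest without digoxin 2) and -1.15 without doublets. That of Cxcl2 was -0.27 to 1.90 when each mouse was left out (lowest without vehicle 2), -0.0478 without doublets and -0.0256 in cells with none of the markers. That of Cd14 was -0.72 in the latter cells, and the NK share of non-malignant cells differed by -0.340 (without vehicle 2) to 2.12 percentage points when each mouse was left out. The causes were not tested. Of 27 genes whose shares of NK cells with a UMI were thinned to 5000 UMIs, 3 changed direction: Itgam (from 3.6 to -0.509 percentage points), Gzmf (from 1.57 to -1.28) and S1pr5 (from -0.375 to 0.340). In the exact expectation over all draws, chosen after seeing the data, 2 changed: S1pr5 (0.0577) and Klrb1c (from -3.14 to 0.265).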
